A study of Mus musculus with 58 samples.

Results

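The 17 diaphragm arrays of tumour-bearing mice were ranked by the signal of a pair of collagen genes, and the 8 highest were compared with the 8 lowest. The score of an array was the mean of log2 Col1a1 and log2 Col3a1, each minus its mean in the sham diaphragm arrays of the same cohort. These genes encode the main chains of type I and type III collagen, so a score of 1 stands for a doubling over sham on average. The arrays were chosen by these measured values, and the difference between the groups in Col1a1 and Col3a1 is therefore no finding. Every other high-minus-low value comes from the same arrays and is given as a description with no test. The 17 arrays belong to a set of 58, which also holds 12 sham diaphragm arrays and the tibialis anterior, a lower leg muscle, of 17 tumour-bearing and 12 sham samples.

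All animals were adult female NSG mice, an immunodeficient strain that lacks T, B and natural killer cells. In the PDX groups, pieces of pancreatic ductal adenocarcinoma from patients with cachexia, the wasting of muscle and fat, had been fixed to the pancreas as patient-derived xenografts. Tissue was taken at severe cachexia or at a limit on tumour size, and sham mice had surgery without a tumour. Tumours of 4 patients gave 4 cohorts, so each cohort models 1 patient's tumour. In the diaphragm, PDX arrays numbered 3 in cohort 1, 5 in cohort 2, 5 in cohort 3 and 4 in cohort 4, beside 3 sham arrays in each. The labels do not say that every array is a separate mouse, nor that equal numbers in both muscles mark the same mouse, and p-values measure only the spread between these samples.

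The high group held 5 arrays of cohort 2, 2 of cohort 1 and 1 of cohort 4. The low group held 4 arrays of cohort 3, 3 of cohort 4 and 1 of cohort 1. Collagen group and cohort are therefore largely the same split: cohort 2 lay wholly in the high group, and no array of cohort 3 did. Cohorts 1 and 4 alone held arrays of both groups, so the leading genes and the gene lists are also described within them, as 2 high against 1 low array in cohort 1 and 1 high against 3 low arrays in cohort 4. Over all 17 arrays, a within-cohort slope gives the log2 change of a gene per unit of score after each cohort's own mean is taken out.

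Scores in the high group ran from 0.77 over a median of 1.32 to 2.17, and in the low group from -0.98 over -0.28 to 0.67. The array left in the middle, cohort 3 PDX 1, scored 0.74. It lay just below cohort 1 PDX 3, the last high array at 0.77, and just above cohort 1 PDX 1, the first low array at 0.67. The groups thus meet with no gap between them. On the log2 scale Col1a1 ran from 8.47 to 10.28 in the high arrays, from 7.22 to 8.57 in the low arrays and from 7.49 to 8.76 in sham. The low arrays thus covered most of the sham range and reached below it, and most of the range of the high arrays lay above it.

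**Figure D1:**
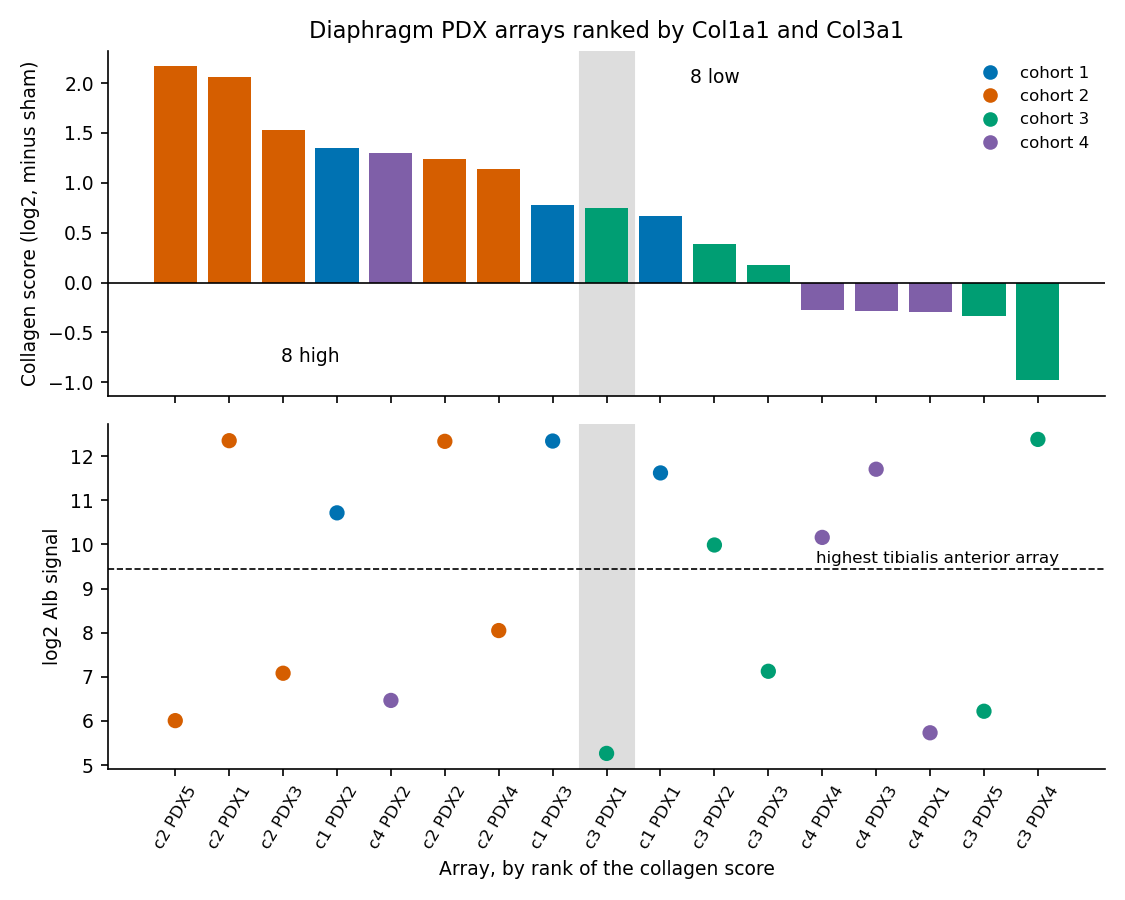
The upper panel shows the collagen score of each of the 17 diaphragm PDX arrays as bars in rank order, coloured by cohort, with the middle array shaded. The lower panel shows log2 Alb signal of the same arrays against the highest tibialis anterior array (dashed, 9.44): 4 of the 8 high and 5 of the 8 low arrays lie above that line.

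The diaphragm touches the liver, and hepatocyte transcripts varied widely between arrays. Log2 Alb, albumin, ran from 6.01 over a median of 9.38 to 12.35 in the high arrays and from 5.73 over 10.07 to 12.38 in the low arrays. Sham diaphragm arrays ran from 5.45 to 12.40, and tibialis anterior arrays reached 9.44. Above that limit lay 4 high arrays, 5 low arrays and 6 of the 12 sham arrays. The mean log2 level of 22 hepatocyte genes ran from 3.92 to 9.96 in the high arrays, 4.00 to 10.75 in the low arrays and 3.86 to 10.46 in sham. Because 9 of the 17 PDX arrays and the sham baseline were affected, the leading genes and the gene lists are also given with all arrays above the limit left out, in the text or in the plot of list medians. That leaves 4 high arrays (3 of cohort 2, 1 of cohort 4) and 3 low arrays (2 of cohort 3, 1 of cohort 4). The sham mean then rests on sham 3 alone in cohort 3, and on sham 1 and sham 2 in cohorts 2 and 4. Skeletal muscle genes were abundant in every diaphragm array: log2 Acta1 ran from 11.3 to 12.1, Ckm from 10.7 to 11.6 and Des from 10.4 to 11.3.

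Collagens of muscle are made mostly by fibroblasts and fibro-adipogenic progenitors, the cells of the interstitium between the fibres. Collagen I and III chains are modified in the endoplasmic reticulum, secreted, trimmed and cross-linked into fibrils, to which glycoproteins and small proteoglycans bind. Macrophages and TGF-beta are known regulators of this process in injured and wasting muscle. In RNA of whole muscle, fewer cells of a type and less RNA per cell cannot be told apart.

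The promoters of genes that stood highest with the collagens are shown for the stretch just before the transcription start, where textbook collagen promoters carry a CCAAT box or a TATA box. Windows of 150 bases upstream of a RefSeq start (mouse build GRCm38.p6) were found for 11 of the 15 genes with the highest separate differences. CCAAT was searched on both strands and TATAAA on both strands of the last 50 bases, and matches of the 2 motifs can share up to a base at their ends. Of all 32851 windows of the table, 24.5% held CCAAT and 3.5% held TATAAA. Capitals mark the match. CCAAT was found for 3 of the 11 genes (Col1a2, Col4a1 and Mki67) and TATAAA for 1 (Postn, at 1 of its 2 starts), and 7 genes had neither, so CCAAT was about as common here as in the whole table. The windows of the 3 matrix genes with a match are shown: a TATAAA for Postn, a CCAAT for Col1a2, and for Col4a1 ATTGG, which is CCAAT on the other strand.
Postn (chr3:54360957-54361106, + strand, the second of 2 starts): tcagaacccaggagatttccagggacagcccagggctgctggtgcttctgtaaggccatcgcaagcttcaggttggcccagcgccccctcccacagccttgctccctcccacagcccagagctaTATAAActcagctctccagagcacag
Col1a2 (chr6:4505468-4505617, + strand): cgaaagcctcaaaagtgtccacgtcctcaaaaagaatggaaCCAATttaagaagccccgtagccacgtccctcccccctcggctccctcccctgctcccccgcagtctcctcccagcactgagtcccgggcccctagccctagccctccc
Col4a1 (chr8:11312827-11312976, - strand): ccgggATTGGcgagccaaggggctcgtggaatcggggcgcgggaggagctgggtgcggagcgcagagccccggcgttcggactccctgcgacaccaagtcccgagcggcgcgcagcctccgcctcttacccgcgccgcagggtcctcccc
A match describes the letters of the window and is not evidence of a factor at work there.

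Among 23183 other genes, 51 (0.220%) were higher in every high array than in any low array, and 17 (0.0733%) were lower in every one. A mean difference of at least 1.5-fold was reached by 489 genes (2.11%) on the higher side and by 200 (0.863%) on the lower side. Of these larger differences, 71.0% were therefore on the higher side. That share was 56.1% when each array was first centred on its own median, which exchanged 1 high array, and 34.5% when both the ranking and the levels were taken without the sham mean, where 7 of 8 arrays of each group stayed the same. The median difference over all genes was -0.007, with 11263 genes higher and 11920 lower. Leaving out 1 array can only add non-overlapping genes: the 51 became 102 without cohort 4 PDX 2, 139 without cohort 1 PDX 1 and a number between these without cohort 1 PDX 3. The 200 genes at least 1.5-fold lower became 323 without cohort 2 PDX 2, 322 without cohort 1 PDX 3 and 304 without cohort 1 PDX 1. Without low arrays of cohort 3 they became 354 (PDX 2), 379 (PDX 3) and 353 (PDX 5). All values below are log2 signal minus the own-cohort sham mean unless a level is named. Where a group mean lay under the median of all probe sets (3.777) the signal was low and the size of the difference is uncertain. This holds for Nts, Klrb1f, Klrb1b, Timp1, Ccl12, Mmp3, Ccr2, Mki67, Top2a, Lep, Il6 and Myh8.

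Sfrp4 had the highest difference of all separate genes. It encodes a secreted frizzled-related protein, which binds Wnt ligands. In the high arrays it ran from 1.30 (cohort 1 PDX 3) over a median of 2.18 to 3.41 (cohort 2 PDX 5), and in the low arrays from -1.07 over 0.23 to 0.99 (cohort 1 PDX 1). The means were 2.19 ± 0.63 and 0.20 ± 0.70 (SD, n = 8 arrays each), a 3.97-fold difference. It was 0.79 within cohort 1, 2.13 within cohort 4 and 2.98 without the arrays of high Alb. Its relative Sfrp2 ran from 0.01 to 1.24 in the high arrays and from -0.72 to -0.01 in the low arrays, so the groups nearly touched. The means differed by 0.96.

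Periostin (Postn), a matrix protein that activated fibroblasts secrete, came next among the matrix genes. The high arrays ran from 1.29 over 1.78 to 2.42 and the low arrays from -0.54 over 0.23 to 0.74, with means of 1.77 ± 0.42 and 0.15 ± 0.46 (SD, n = 8 each). The difference of 1.62 stands for 3.08-fold and was 0.95 within cohort 1, 1.21 within cohort 4 and 1.79 without high-Alb arrays. It was 1.41 on levels without the sham mean in the same groups, and 1.05 when the arrays were also ranked without it, which exchanged 1 array in each group. In the low group Postn lay on both sides of the sham level, while every high array was above it.

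Of 16 other interstitial collagens, 14 were higher on average, 9 of them by at least 1.5-fold (against 2.11% of all genes), and 2 were separate between the groups. Their median difference was 0.79 against -0.007 over all genes. A positive within-cohort slope was found in 15 of the 16, and in 14056 of all 23183 genes. The partner chain of type I collagen, Col1a2, ran from 0.76 over 1.26 to 2.10 in the high arrays and from -0.71 over -0.08 to 0.76 in the low arrays. The groups did not overlap, but the lowest high array and the highest low array, both of cohort 1, were nearly equal. Col1a2 differed by 1.44 (2.71-fold), by 0.27 within cohort 1 and by 1.46 within cohort 4, with a within-cohort slope of 0.91 ± 0.04 (SE). Col5a2, a chain of the type V collagen that starts fibrils of type I, ran from 0.57 to 2.20 in the high arrays and from -0.57 to 0.56 in the low ones. It differed by 1.40. Col12a1 and Col8a1 differed by 1.38 and 1.00, with overlap. The list's median was -0.05 within cohort 1, 0.69 within cohort 4, 0.72 without high-Alb arrays and 0.41 without cohort 2. The list mean in cohort 1 was 0.53 in PDX 2, which had the highest score of that cohort (1.35). It was 0.11 in PDX 3 and 0.40 in PDX 1, whose scores of 0.77 and 0.67 lay close together.

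Of 26 genes that process and cross-link collagen, 25 were higher on average, none was separate and 6 reached 1.5-fold, with a median of 0.33. Lox, lysyl oxidase, which starts the cross-links, ran from 0.61 over 1.60 to 3.17 in the high arrays and from 0.03 over 0.55 to 0.88 in the low arrays. One high array, cohort 2 PDX 4 at 0.61, lay among the low ones. Lox differed by 1.15, and by 0.74 and 1.70 within cohorts 1 and 4. The relative Loxl2 differed by 1.13, Plod2, a lysyl hydroxylase, by 1.03, and Serpinh1, the collagen chaperone HSP47, by 0.92. In cohort 1 the list's median was -0.01 and in cohort 4 it was 0.39.

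Glycoproteins of the matrix and elastic fibres were higher in 34 of 35 cases, 14 by at least 1.5-fold, with a median of 0.47 (0.07 within cohort 1, 0.55 within cohort 4 and 0.31 without high-Alb arrays). Besides Postn, elastin (Eln, chosen after its values were seen) was separate, from 0.65 to 1.26 in the high and from -0.45 to 0.47 in the low arrays. Comp differed by 1.20 on average but by -0.88 within cohort 1. Mfap4 and Cilp differed by 1.15 and 1.14. Fibronectin (Fn1), a widespread matrix glycoprotein, differed by only 0.31. Of 15 small proteoglycans and versican, 14 were higher, 5 by at least 1.5-fold, with Lum at 1.03, Bgn at 0.99 and Vcan at 0.92. Their median of 0.39 was -0.27 within cohort 1 and 0.86 within cohort 4.

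Basement membrane genes, which wrap fibres and vessels, were higher in 17 of 21 cases, with a median of 0.34. The list's median was -0.09 within cohort 1 and 0.46 within cohort 4. Col4a1, a main chain of the type IV network, was separate: 0.32 over 0.61 to 1.35 in the high arrays and -0.86 over -0.29 to 0.02 in the low arrays, a 2.11-fold difference. It was 0.48 and 0.96 within cohorts 1 and 4 and 1.15 without high-Alb arrays. The low arrays of Col4a1 were at or under their sham mean, with 0.02 as the highest. Col4a2 and Nid1 differed by 0.76 and 0.65. Col15a1 differed by 0.91, with a mean of -0.02 in the high group and -0.93 in the low group, so all 8 low arrays were under sham and the high arrays lay on both sides of it, from -0.83 to 0.62.

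Among 30 matrix proteases and inhibitors, 27 were higher, 8 of them by at least 1.5-fold, and the median was 0.32. Timp1, an inhibitor of metalloproteinases, ran from 1.00 over 2.00 to 5.17 in the high arrays and from 0.02 over 0.64 to 2.58 in the low arrays. The array at 5.17 was cohort 2 PDX 5, which also had the highest score. Timp1 differed by 1.38 on average, by -0.39 within cohort 1, by 2.05 within cohort 4 and by 2.30 without high-Alb arrays. Mmp2, gelatinase A, ran from 0.71 to 1.72 in the high arrays and from -0.59 to 0.74 in the low arrays, an overlap of 1 pair of close values, and differed by 1.20. Mmp3 differed by 1.15 and Plat, tissue plasminogen activator, by 0.89. Adam12, chosen after its values were seen, was the separate gene of this list, with a difference of 0.52.

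Genes of TGF-beta, activin and PDGF signalling differed less: 30 of 42 were higher, 2 by at least 1.5-fold, with a median of 0.13 that was 0.03 without high-Alb arrays. Fstl1, a secreted follistatin-like glycoprotein, was separate, from 0.50 over 0.91 to 1.87 in the high and from -0.60 over 0.06 to 0.38 in the low arrays, a difference of 1.04. Tgfb1 itself differed by 0.58, with means of 0.63 ± 0.45 and 0.05 ± 0.47 (SD, n = 8 each). Ccn2, a classical target of TGF-beta, differed by 0.59, the ligand Gdf10 by 0.62 and Tgfbi by 0.43.

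**Figure D2:**
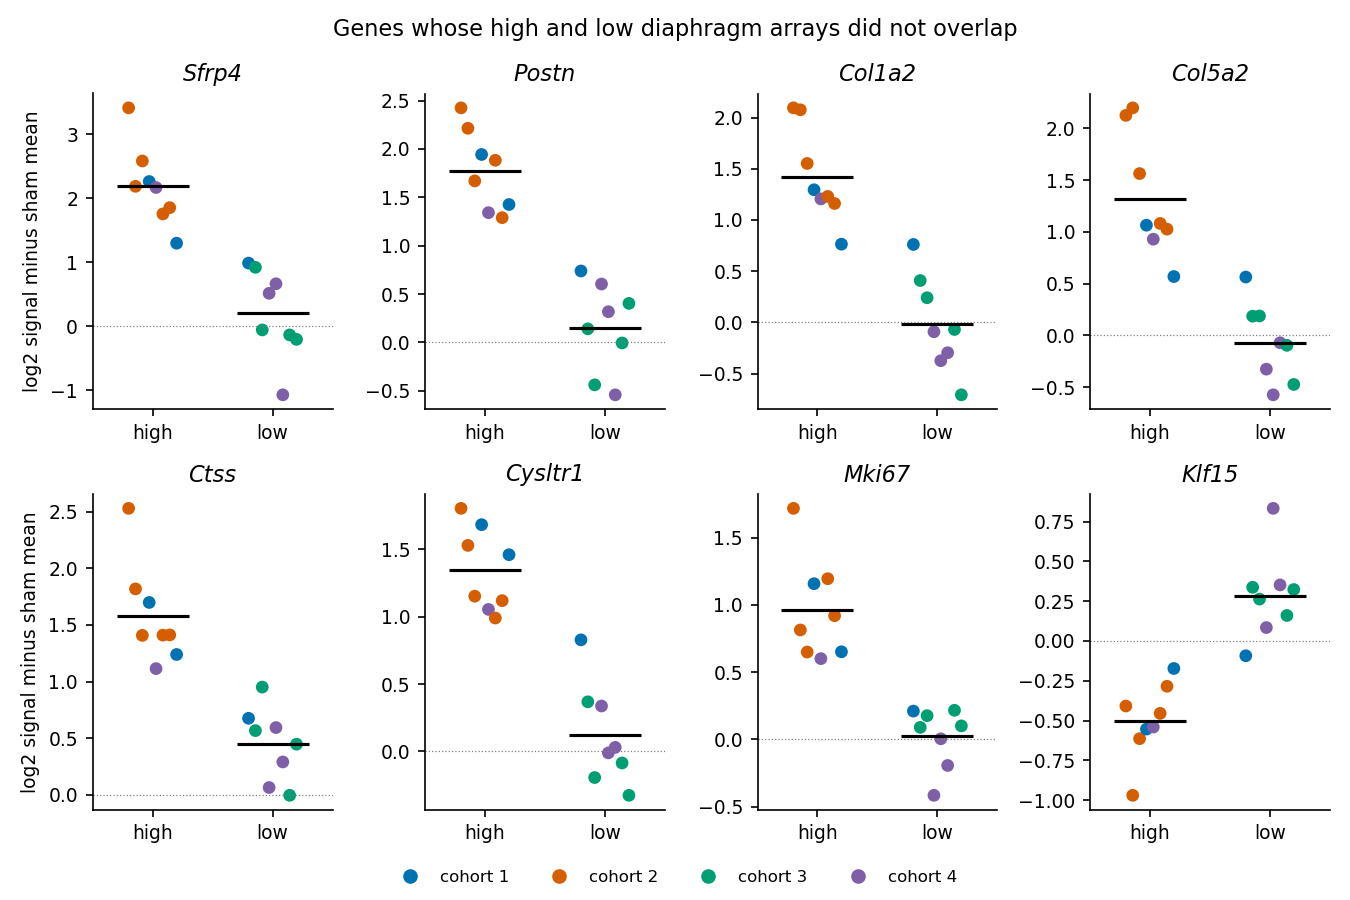
Each panel shows log2 signal minus the own-cohort sham mean for 1 gene, with the 8 high and 8 low diaphragm PDX arrays as points coloured by cohort, the group mean as a line and sham at 0. The gap between groups is wide for Postn (1.29 against 0.74) and nearly closed for Col1a2 and Col5a2, where a pair of cohort 1 arrays meet, and Klf15 runs the other way.

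Markers of fibroblasts and fibro-adipogenic progenitors were higher in 20 of 22 cases, 5 by at least 1.5-fold, with a median of 0.34 (0.04 within cohort 1 and 0.52 within cohort 4). Their mean level ran from 6.01 to 6.41 in the high arrays, 5.51 to 6.21 in the low arrays and 5.55 to 6.03 in sham. Meox1, a homeobox factor of activated fibroblasts, was separate, at 0.18 ± 0.32 in the high and -0.76 ± 0.37 in the low arrays (SD, n = 8 each). Here too the high arrays were near sham and the low arrays under it. Thy1 and Dpt differed by 0.94 and 0.93, and Pdgfra, the surface marker of fibro-adipogenic progenitors, by 0.78. Acta2, the smooth muscle actin of myofibroblasts and vessel walls, differed by -0.01, and 7 of 14 genes of pericytes and smooth muscle were higher, with a median of -0.004.

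List medians of mesothelium and tendon differed in sign between cohorts 1 and 4. Mesothelium, the cell layer on both faces of the diaphragm, had 11 of 17 genes higher and a median of 0.09, which was -0.64 within cohort 1 and 0.43 within cohort 4. Msln, mesothelin, differed by 0.61 on average and by -0.84 within cohort 1. Of 7 tendon genes, 5 were higher, 2 of them by at least 1.5-fold: Cpxm2 and, at 0.89, Tnmd, a marker of tenocytes. Egr1 was lower by at least 1.5-fold. The tendon median of 0.38 was -0.21 within cohort 1 and 0.29 within cohort 4. The part of either tissue in the collagen differences was not tested. The list medians of pancreatic acinar cells and of Schwann cells were -0.11 and 0.06, and acinar genes had a mean level of at most 3.04 in the high, low and sham arrays.

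Macrophage and monocyte genes were higher in the high arrays almost throughout: 29 of 31 on average, 18 by at least 1.5-fold (against 2.11% of all genes), with a median of 0.60. Averaged over the list, the high arrays ran from 0.78 over 0.94 to 1.51 above sham and the low arrays from 0.09 over 0.48 to 0.60. Even low arrays thus lay above sham, and the groups did not overlap. Left out of both groups, cohort 3 PDX 1 stood at 1.155, above most high arrays. The list's median was 0.60 within cohort 1, 0.58 within cohort 4 and 0.64 without high-Alb arrays, so both mixed cohorts gave a value close to that of all 16 arrays.

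Ctss, cathepsin S of antigen-presenting cells, ran from 1.11 over 1.41 to 2.53 in the high and from -0.01 over 0.51 to 0.95 in the low arrays, a 2.19-fold difference that was 0.79 and 0.80 on the log2 scale within cohorts 1 and 4. The middle array, cohort 3 PDX 1, stood at 2.00 and so above most high arrays. Cysltr1, a receptor for leukotrienes, ran from 0.99 to 1.80 and from -0.33 to 0.83, a difference of 1.23. Cyth4, a cytohesin of blood cells, differed by 1.02 and was separate. Ccr2, the receptor that draws monocytes into tissue, differed by 1.16 with overlap, Ms4a6c by 1.15 and Cd74, the invariant chain, by 1.13. The tissue macrophage marker Mrc1 differed by 0.57.

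Of 34 chemokine and cytokine genes, 23 were higher, 8 by at least 1.5-fold, with Ccl12 at 1.25 and Ccl8 at 0.92. Il6 differed by 0.91, largely through cohort 2 PDX 5 at 3.68. Interferon response genes were higher in 19 of 22 cases, with Rsad2 at 1.38 and Ifit1 at 0.83, but their median of 0.32 was -0.04 and -0.10 within cohorts 1 and 4. Complement genes were higher in 16 of 18 cases, with C7 at 1.00 and C1s1 at 0.68. Of 28 acute-phase and STAT3 genes, 22 were higher, with Saa3 at 1.33 and Il4ra at 0.73. Serpina3n, which was far above sham in both groups (2.86 ± 1.26 and 2.64 ± 1.09, SD, n = 8 each), differed by 0.22.

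Klrb1f and Klrb1b, a pair of related C-type lectin receptors of the Klrb1 family, were separate, with differences of 1.27 and 0.97. Their sequences are related, so probes may not fully tell them apart. Klrb1c, a member of the same family counted in the lymphocyte list, went the other way with overlap. It ran from -0.599 to 0.454 in the high arrays and from -0.232 to 0.825 in the low arrays. Markers of lymphocytes, which the strain lacks, had a mean level from 2.51 to 2.69 in the high arrays and from 2.50 to 2.79 in the low arrays and sham did not exceed 2.78. Their median difference was -0.08, with 7 of 19 higher. Neutrophil genes had a median of 0.10 (12 of 18 higher) that turned to -0.25 without high-Alb arrays. Mast cell genes had one of -0.06 (4 of 13 higher), which turned to 0.05. Nts, the precursor of neurotensin, was separate at 0.94 over 1.74 to 2.61 against -0.28 over 0.46 to 0.93, with a difference of 1.42 that was 1.64 within cohort 1.

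Endothelial genes were higher in 14 of 19 cases, 3 by at least 1.5-fold, with a median of 0.35 that was 0.17 within cohort 1, 0.39 within cohort 4 and 0.14 without high-Alb arrays. Vwf, von Willebrand factor, was separate, from 0.60 over 0.79 to 1.34 in the high and from -0.11 over 0.22 to 0.50 in the low arrays, with differences of 0.21 and 0.44 within cohorts 1 and 4. Plvap, of fenestrated vessels, differed by 0.82 and the adhesion molecule Vcam1 by 0.61. Of 31 cell cycle genes, 28 were higher, 4 by at least 1.5-fold, with a median of 0.21. Mki67, the Ki-67 antigen of dividing cells, ran from 0.60 over 0.87 to 1.72 in the high and from -0.42 over 0.09 to 0.22 in the low arrays. Every high array lay above sham, and the low arrays lay around it, with differences of 0.69 and 0.80 within cohorts 1 and 4. Ccna2, cyclin A, differed by 0.88, Prc1 by 0.80 and Top2a by 0.69, with overlap.

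**Figure D3:**
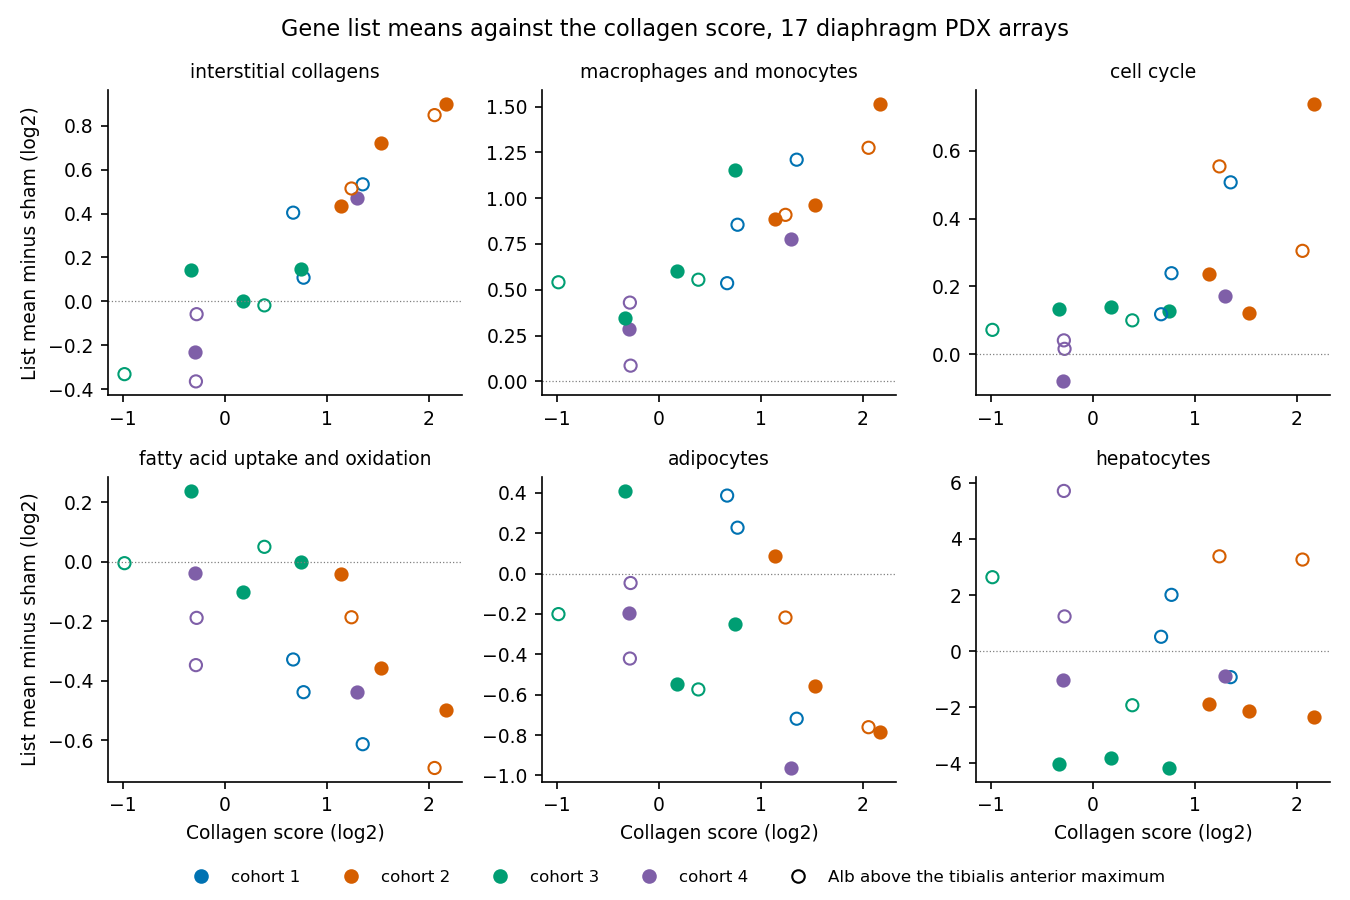
Each panel plots the mean of 1 gene list (log2 minus sham) against the collagen score of the 17 diaphragm PDX arrays, coloured by cohort, with open circles for arrays of high Alb. Macrophage means of the high arrays (0.78 to 1.51) lie above those of the low arrays (0.09 to 0.60), with the middle array at 1.155. Hepatocyte means run from -2.34 to 3.38 in the high and from -4.01 to 5.71 in the low arrays.

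On the lower side, Klf15 had the largest separate difference. It encodes a transcription factor of lipid and amino acid metabolism in muscle that glucocorticoids induce. The high arrays ran from -0.97 over -0.50 to -0.17 and the low arrays from -0.09 over 0.29 to 0.83, which means 1.72-fold lower in the high group. The difference was -0.27 within cohort 1, -0.96 within cohort 4 and -0.62 without high-Alb arrays. The other separate genes on this side differed less: Bcl7a, a subunit of the SWI/SNF remodeller, by -0.62, Wdr45, of autophagy, by -0.48, Uqcc3, an assembly factor of respiratory complex III, by -0.46, and Dhrs4, a dehydrogenase of peroxisomes, by -0.40.

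Other glucocorticoid-responsive genes did not follow the score inside cohorts. Of 24 such genes, 21 were lower in the high group, with a median of -0.23, but the median was 0.16 within cohort 1 and -0.06 within cohort 4. The median within-cohort slope had the opposite sign, at 0.19 against 0.036 over all genes. Positive slopes numbered 14 of 24, near the share over all genes (14056 of 23183). Per1, a clock gene of this list that glucocorticoids induce, stood apart in cohort 3. It differed by -1.15, since the cohort 3 arrays ran from 1.75 to 2.81 while all other PDX arrays lay between -0.20 and 0.70. Arrdc2, also of the list, differed by -1.16, but cohort 4 PDX 1 at 1.555 lay above cohort 3 PDX 4 at 0.976. Outside the list, the immediate early gene Nr4a1 and the insulin receptor substrate Irs2 differed by -1.35 each. Fkbp5, a sensitive glucocorticoid target, lay above sham in the mean of both groups, at 1.49 ± 0.80 and 1.45 ± 0.57 (SD, n = 8 each).

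Genes of fatty acid uptake and oxidation were lower in 21 of 22 cases, with a median of -0.30 that was -0.18 within cohort 1, -0.22 within cohort 4 and -0.30 without high-Alb arrays. One of them, the mitochondrial thioesterase Acot2 (-0.86), reached 1.5-fold, and Eci2, an isomerase of beta-oxidation, differed by -0.57. TCA cycle genes were lower in 21 of 23 cases with a small median of -0.12 (-0.19 without high-Alb arrays), led by Pcx, pyruvate carboxylase, at -0.67. Oxidative phosphorylation genes were lower in 37 of 56 cases with a median of -0.06, and glycolytic genes in 16 of 21 with -0.08, which was -0.29 without high-Alb arrays.

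Adipocyte genes were lower in 15 of 17 cases, with a median of -0.41. The list mean ran from -0.96 over -0.64 to 0.23 in the high arrays and from -0.57 over -0.20 to 0.41 in the low arrays, so the groups overlapped widely. Lep, leptin, differed by -0.83 and Adipoq, adiponectin, by -0.62, with Cidec and Plin1 of the lipid droplet at -0.49 and -0.48. Without the arrays of high Alb the list's median was -0.13 and Adipoq differed by -0.02. Whether the amount of fat taken with the muscle has a part in this was not tested.

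The sign of the muscle fibre lists depended on the arrays used. Of 20 fast sarcomere genes 10 were higher, with a median of 0.003, and of 19 slow sarcomere genes 6 were higher, with a median of -0.13. Without high-Alb arrays the medians were -0.25 and -0.38. The within-cohort slopes were mostly positive, in 17 of 20 fast and 15 of 19 slow genes, against 14056 of all 23183 genes. Myh4, the myosin of the fastest fibres, differed by -0.92, with cohort 2 PDX 1 at -4.86 and PDX 5 at -2.97, and by -3.09 without high-Alb arrays. Myh7, the slow myosin, differed by -0.21. Pvalb, parvalbumin of fast fibres, and Csrp3, a Z-disc protein, differed by -0.55 and -0.65. The ubiquitin ligases of atrophy, Fbxo32 and Trim63, were not higher in the high group, with -0.36 and -0.54, and 19 of 25 atrophy genes were lower, with a median of -0.21. That median was only -0.03 within cohort 1 and -0.06 within cohort 4. Within-cohort slopes were positive in 14 of the 25, near the share over all genes.

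Myh8, the perinatal myosin of regenerating fibres, stood at 6.42 in cohort 4 PDX 2 and between -0.29 and 0.33 in the other 16 arrays. Actc1, the cardiac actin that regenerating fibres also use, stood at 1.38 in that array and differed by 3.02 within cohort 4. Over 24 satellite cell and regeneration genes, 12 were higher and the median was 0.01. For genes of denervation and the neuromuscular junction it was -0.02, with 7 of 19 higher.

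Blood and liver transcripts moved with the groups in different ways. All 7 erythroid genes measured were higher, with a median of 0.97, Hbb-b1, beta globin, at 1.63 and Alas2, of haem synthesis, at 1.08. The erythroid mean level ran from 4.49 to 7.01 in the high, 3.94 to 5.78 in the low arrays and 4.46 to 5.45 in sham, and the median was 0.04 without high-Alb arrays. Hepatocyte genes were higher in 19 of 22 cases with a median of 0.11 over the groups, but it was 0.19 within cohort 1 and -3.03 within cohort 4. The fitted within-cohort slopes of all 22 were negative (9127 of 23183 over all genes), with a median of -2.20. Not every array followed them: cohort 2 PDX 1, with the second highest score, had a hepatocyte mean of 3.27 and cohort 2 PDX 4, with the lowest score of that cohort, one of -1.88. The part of liver RNA in the other differences was not tested beyond leaving out these arrays.

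**Figure D4:**
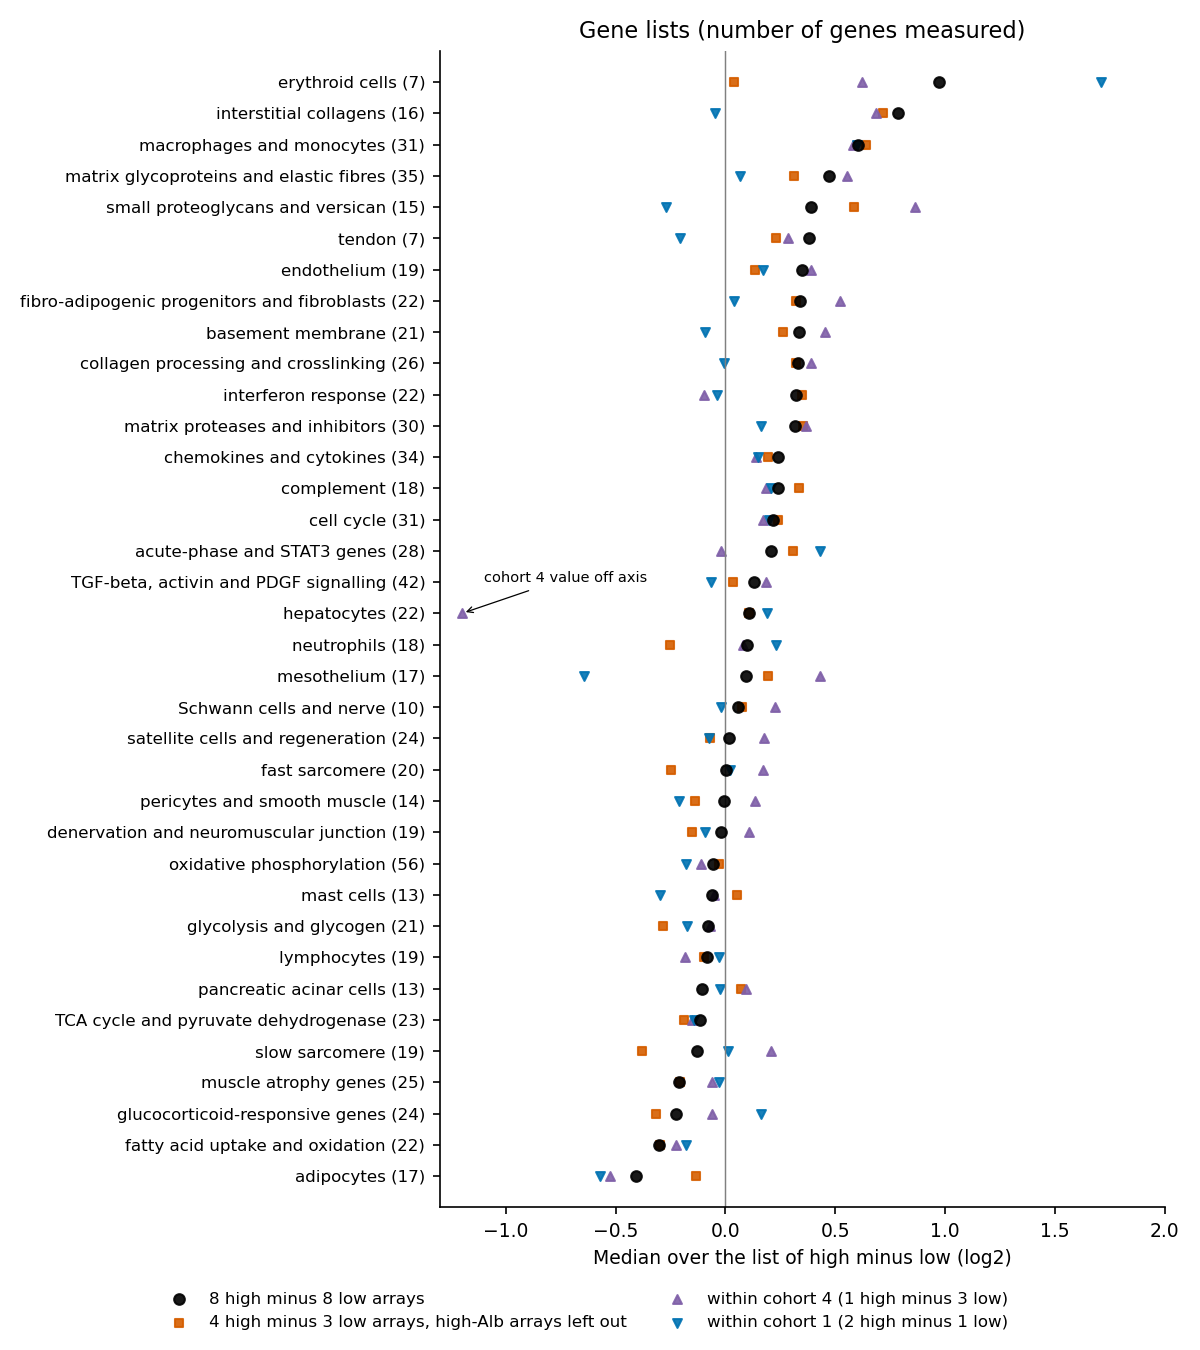
Each row is a gene list, with the number of genes measured, and each symbol is the list's median high-minus-low difference (log2) over all 16 arrays (black), without arrays of high Alb (orange), within cohort 1 (blue) or within cohort 4 (purple). The 4 symbols of macrophages and monocytes lie close together near 0.6, whereas those of interstitial collagens spread from -0.05 to 0.79 and those of erythroid cells from 0.04 to 1.71. The cohort 4 value of hepatocytes, -3.03, is drawn at the edge.

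Cohort and treatment come from the labels, so the effect of the tumour can be tested in each cohort without the score. Because all cohort 2 arrays ranked high and most cohort 3 arrays low, these tests share their arrays with the ranking and are no separate support for it. With limma and Benjamini-Hochberg adjustment at 0.05, 624 genes passed in cohort 2, of which 512 were higher in PDX than in sham (2.21% of all genes) and the others lower (0.483%). Cohort 1 had 5 (0.0216%) and 3 (0.0129%), cohort 3 had 140 (0.604%) and 106 (0.457%), and cohort 4 had 15 (0.0647%) and 74 (0.319%). The 624 became 143, 296 and 185 without its sham arrays 1, 2 and 3, and 365, 953 and 279 without its PDX arrays 1, 4 and 5. They became 3 without the high-Alb arrays, where 13 arrays remained. The 8 genes of cohort 1 became 1, 0 and 2 without its sham arrays 1, 2 and 3 and 57 and 0 without its PDX arrays 1 and 2. The 246 genes of cohort 3 became 70, 107 and 61 without its sham arrays 1, 2 and 3, 135 and 130 without its PDX arrays 1 and 2, and 27 without high-Alb arrays.

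In cohort 2, part of the matrix lists and just over 1 in 2 macrophage genes passed. Of the 16 interstitial collagens 9 rose there (against 2.21% of all genes), of 35 glycoproteins 12, of 26 processing genes 5 (1 fell), of 30 proteases and inhibitors 7, of 15 proteoglycans 4, of 21 basement membrane genes 1, and of 31 macrophage genes 17. Col1a2 rose by 1.62 (SE 0.32, adjusted p = 0.00695, limma) in cohort 2. It stood at 0.94 (SE 0.36) in cohort 1, 0.16 (SE 0.32) in cohort 3 and 0.11 (SE 0.33) in cohort 4, none of which passed. Postn rose by 1.90 in cohort 2 (adjusted p = 0.00392, limma), and Sfrp4 by 2.36 (adjusted p = 0.00715). Cpxm2, a secreted carboxypeptidase-like protein counted here in the tendon list, rose by 2.00 and Bgn by 1.43 in the same cohort. Among macrophage genes, Cd74 rose by 2.25 in cohort 2 and by 1.17 in cohort 3 (adjusted p = 3e-05 and 0.0215), and Ccr2 by 1.57 in cohort 1 and 1.75 in cohort 2 (adjusted p = 0.021 and 0.000563). Cohort 3, which gave no high array, had 7 macrophage genes that rose. Vwf rose by 0.93 in cohort 2. With each of the 29 arrays left out in turn, Postn, Cpxm2, Bgn, Vwf, Cd74 and Ccr2 passed in cohort 2 in all 29 fits. Col1a2 missed the threshold there without cohort 2 sham 1 and Sfrp4 without cohort 2 sham 3. Most of these cohort 2 calls were lost when all high-Alb arrays were left out together. Cd74 in cohort 3 was lost without that cohort's sham 1 or sham 3. Ccr2 in cohort 1 was lost without any 1 of its sham arrays, its PDX 2 or its PDX 3.

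Some genes of the score's pattern fell in the cohorts of the low group. Meox1 stood at -0.96 in cohort 3 (adjusted p = 0.0218, limma) and 0.25 in cohort 2. Col15a1 stood at -0.95 in both cohort 3 and cohort 4 (adjusted p = 0.0171 and 0.0395) and at 0.30 in cohort 2. With 1 array left out, Meox1 passed in 25 of 29 fits, and Col15a1 in 26 in cohort 3 and 22 in cohort 4. Each was lost without any 1 of the 3 sham arrays of the cohort concerned, Meox1 also without cohort 3 PDX 2, and Col15a1 in cohort 4 also without its PDX 1, 2 or 3 or cohort 1 sham 2. Klf15 stood at -0.55 in cohort 2, which did not pass (adjusted p = 0.182). Serpina3n, an acute-phase protease inhibitor, rose in cohort 2 by 2.80 and in cohort 4 by 3.86, the cohort that supplied 3 low arrays. Its call was lost in cohort 2 without sham 1, sham 2, PDX 1 or PDX 5 of that cohort, and in cohort 4 without any 1 of its sham arrays, PDX 2 or PDX 3.

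A test of whether the tumour effect differed among the 4 cohorts gave 1 gene of 23185 (0.00431%) by limma's moderated F test, and 1724 genes at an unadjusted p under 0.05. That gene was Per1, with effects of 0.44, 0.13, 2.43 and 0.05 in cohorts 1 to 4 (adjusted p = 0.000652). No collagen passed: Col1a2 had an adjusted p of 0.487 and Ccr2 one of 0.206. A difference between cohorts in these genes is therefore not established, although the values of cohort 2 passed on their own.

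**Figure D5:**
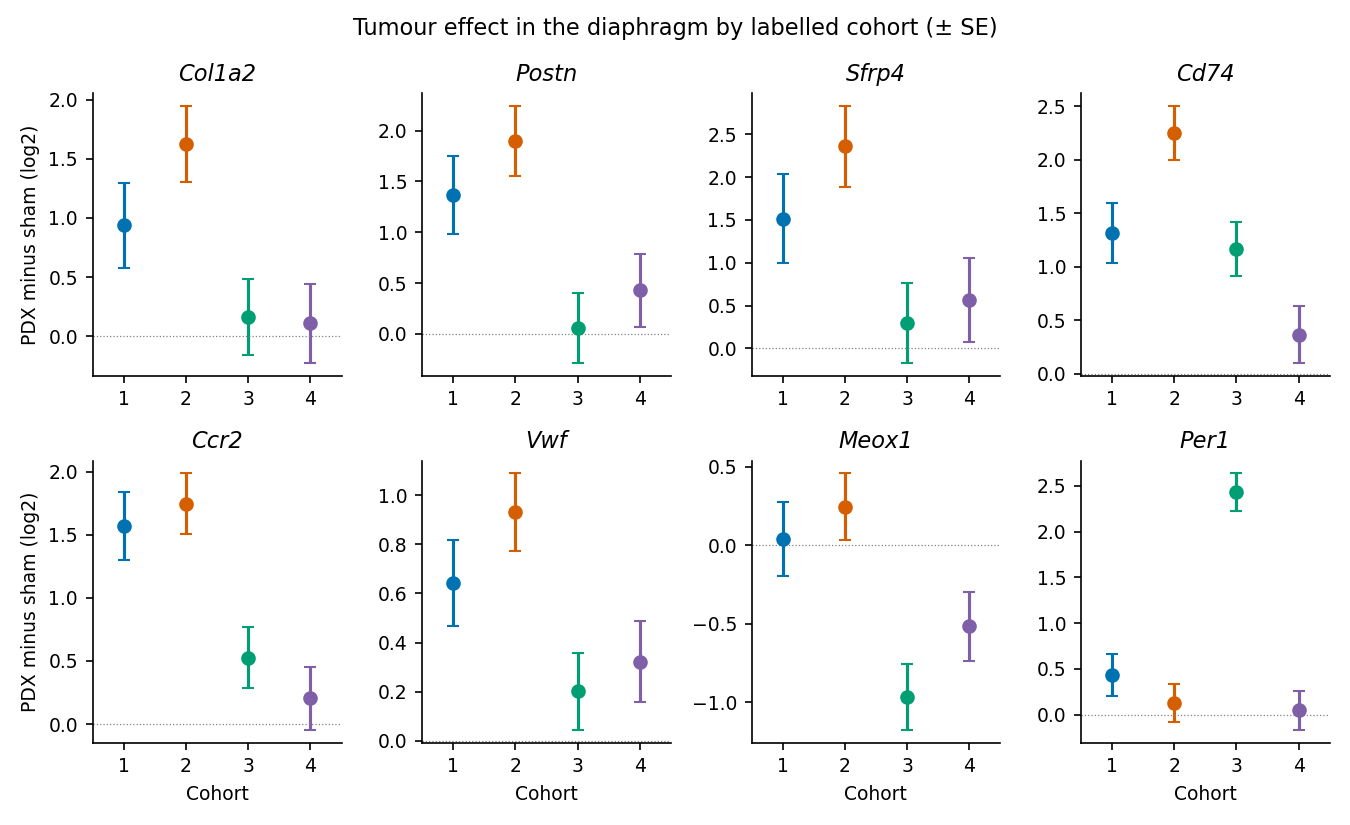
Points show PDX minus sham (log2) in the diaphragm for 8 genes in each labelled cohort, with limma's standard error as bars and sham at the dotted line. Col1a2, Postn, Sfrp4, Ccr2 and Vwf stand higher in cohorts 1 and 2 than in 3 and 4, and Per1 stands at 2.43 in cohort 3 alone, the one gene whose difference among cohorts passed.

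The 12 sham diaphragm arrays were not ranked, and their own Col1a1 and Col3a1 levels varied too. Slopes of every gene on the mean of these 2 levels, within cohorts, gave 0 genes by limma after adjustment (0%), with 927 at an unadjusted p under 0.05. Col1a2 had a slope of 0.91 (SE 0.26, adjusted p = 0.96 by limma) and Col4a1 one of 0.73. Over all genes, 13320 of 23183 slopes were positive, with a median of 0.062. All 16 other interstitial collagens had a positive slope, with a median of 0.42, but 0 of 22 hepatocyte genes did, with a median of -5.47. This was not so in every cohort: in cohort 4 the sham array with the most collagen, sham 3, also had the highest Alb of its cohort (10.75). Actc1 and Saa3 had slopes of 1.48 and 2.33, and neither passed.

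In the tibialis anterior the same question was asked with the diaphragm score of the array that carries the same cohort and number. Here 0 genes passed by limma (0%), with 1154 at an unadjusted p under 0.05, and comparing the 8 against 8 arrays without cohort means also gave 0, with 2430 at an unadjusted p under 0.05. The smallest p was that of Fosl1, a subunit of AP-1, at 0.000124 (limma, adjusted p = 0.917), and Mrc1 had a slope of 0.38. Collagen was low in the leg muscle of both groups: Col1a2 stood at -1.65 ± 0.99 where the same-numbered diaphragm was high and at -2.04 ± 0.38 where it was low (SD, n = 8 each). Postn stood at -1.09 ± 0.60 and -1.12 ± 0.48 likewise, so in these arrays the leg muscle of neither group had the rise seen in the diaphragm.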

How the data were processed

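The deposited log2 values of 25206 probe sets on 58 Affymetrix arrays were made by the authors with RMA. The submitters' processing notes name affy 1.36.1 and R 2.15.1. Total RNA (TRIzol) was labelled with biotin, per the labels' protocols. For build and probe definitions the sources used here give nothing. Through the platform annotation 23185 probe sets had 1 gene symbol each and 2021 had none. Arrays limit the precision by their number.

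The members, the gene lists and the rule for named genes were chosen with earlier results of these data known. High minus low differences are differences of mean log2 values after the own-cohort sham mean was taken away. Their fold is 2 to that power, and a fold of at least 1.5 is counted. The rule named the 15 highest and 15 lowest separate genes, up to 4 members per list by absolute difference, the 8 smallest p per test and a fixed set of markers. Predicted, olfactory and small RNA genes were not named, and not all so chosen are printed. A total of 36 lists (800 of 856 genes measured) were described.

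Tests used limma 3.58.1 with statmod 1.5.0 in R 4.3.3, with a mean per cohort and treatment in the diaphragm (21 residual degrees of freedom) or a mean per cohort plus a slope, two-sided, adjusted by Benjamini-Hochberg over all named genes at 0.05. The fit was tested on simulated data. Descriptions used Python 3.11.15, numpy 2.4.6 and pandas 2.3.3. Promoters came from RefSeq. Alternatives were the score, the sham baseline, array centring, dim genes, Alb, cohorts, single arrays and a replicate block.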

Additional observations from a re-analysis of the deposited data

Results flagged for a closer look

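Within the 8 high or the 8 low diaphragm arrays, some genes had 1 array set apart from the other 7 by a gap above Dixon's critical value of 0.526 of the range. Chance alone gives such a gap in about 1 in 20 groups. Of 216 groups looked at, 9 had one. That count is no more than chance would give, but it says nothing about any single array. The gap was 0.912 of the range for Myh8 in cohort 4 PDX 2. In the high group, cohort 2 PDX 5 stood at 5.169 for Timp1 (median 1.999) and at 1.296 for Pdgfra (median 0.502). Cohort 4 PDX 2 stood at 6.423 for Myh8 (median 0.067) and at -0.301 for Fn1 (median 0.428). Cohort 1 PDX 3, the array nearest the border, stood at -0.106 for Lum (median 0.96), and cohort 2 PDX 1 at -1.271 for Irs2 (median -0.201). In the low group, cohort 3 PDX 4 stood at 0.678 for Micalcl (median 0.232), cohort 4 PDX 1 at 0.622 for Ano7 (median 0.175) and cohort 4 PDX 3 at -0.451 for Eln (median 0.272).

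Per1 was the gene whose tumour effect in the diaphragm differed among the 4 cohorts by limma's F test (adjusted p = 0.000652). Over 35 alternatives its adjusted p lay between 3.222e-06 and 0.02212 and stayed under 0.05 in all of them.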

How the results depend on the processing

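The high-minus-low counts (main 51 genes separate and higher, 17 separate and lower, 489 and 200 at least 1.5-fold higher and lower) moved with the choice of arrays. With ranking and levels not taken against sham they were 44, 3, 266 and 505. That setting exchanged 1 array in each group, and 11 of the 51 and 1 of the 17 separate genes were shared. After centring 23 and 3 were shared. Taking 5 against 5 arrays gave 689, 231, 986 and 949. Centring each array gave 7 separate lower genes and 388 at least 1.5-fold lower, leaving out dim genes gave 8 and about 1.2e+02, and adding the middle array to the low group left 31 higher. Without arrays of high Alb the 4 counts were 1346, 1514, 1093 and 784. Without cohort 1 the separate genes were 244 and 77 and those 1.5-fold lower 371, and without cohort 2 they were 226 and 113 separate. Without cohort 3 they were 255 and 128 with 661 lower by 1.5-fold, and without cohort 4 224 and 204 with 329. Fewer arrays make separation easier by construction. Leaving out 1 array gave 55 to 139, 17 to 46, 394 to 588 and 155 to 379. A score scaled by each gene's spread gave the same groups. Tut4 differed by 0.0201 without the sham baseline and Tlx1 by 0.0407 without high-Alb arrays, both against a negative main value, and the cause was not tested.

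The F test among cohorts (main 1 gene) gave 2 after centring, 2 with Alb as a covariate, 10 without high-Alb arrays, and 1 to 7 with 1 array left out. Cohort 1 (main 8) gave 107 without dim genes, 33 with a trended and robust fit, 194 with Alb as a covariate and 0 to 114 with 1 array left out. It has no value without high-Alb arrays, since all its PDX arrays lie above the limit. Cohort 2 (624) gave 3 without high-Alb arrays and 143 to 953 with 1 array left out. Of 108 genes followed by name, 48 lost their cohort 2 call without high-Alb arrays. At most 3 can have kept one, and the others had no call in the main fit. Cohort 3 (246) gave 27 and 61 to 323, and cohort 4 (89) gave 1 and 4 to 231, with 168 after centring, 168 without dim genes and 144 with Alb as a covariate. The slopes in sham and in the tibialis anterior gave 0 genes in each alternative run, from 0 to 0 with 1 array left out.

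The replicate block, with both muscles in 1 fit and equal numbers as a pair, gave 7 genes for the F test and 238, 1035, 381 and 282 genes in cohorts 1 to 4. That fit drew its spread from all 58 arrays and not from the 29 diaphragm arrays alone. Which of these changes moved the counts was not tested. Whether equal numbers mark a pair was not settled. The correlation of their deviations ran from -0.222 to 0.222 with a median of 0.017, and 4 of 29 pairs were above 0.1. The block correlation was 0.01. Of 29 arrays, 15 correlated best with their own number, among 3 to 5 candidates each. Every cohort 2 array did so, and no PDX array of cohort 3 did.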
